A study of Mus musculus with 7 samples.

Results

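The 30 genes described here encode the sensors, transcription factors, folding helpers and disposal factors of the unfolded protein response. They were taken by symbol from a list of known members. That rule uses no measured value, but the list was chosen with earlier results of these data known. All 30 were found among the 51912 rows of the deposited table of read counts, and all 30 passed the filter on low counts that left 16504 genes for testing. Levels and differences below are of transcripts, in the build GRCm38 where positions are given. The libraries are messenger RNA of pancreatic islets from 7 db/db mice. Both groups share this genotype, a loss of leptin receptor signalling that leads to obesity and diabetes. AAV-GFP (4 mice) received an adeno-associated virus that encodes green fluorescent protein, the control, and AAV-Adipsin (3 mice) one that encodes adipsin, a protease of the alternative complement pathway. Islets were taken 4 weeks after the vector and kept in culture for 12 hours before RNA was extracted, each mouse giving 1 library. It is at this time, per the design text, that serum glucose was similar in both groups, and the question is what adipsin changes in islet transcripts by then. The sources used here do not give age, sex, vector dose or the promoter that drives the vector. Mice without the db/db genotype are not analysed here, so the levels below describe diabetic islets after culture and carry no reference to healthy ones.

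Beta cells make insulin in the endoplasmic reticulum (ER), and a load of unfolded protein there is read by 3 membrane sensors. IRE1 (gene Ern1) splices the Xbp1 messenger so that it encodes an active factor, PERK (Eif2ak3) slows translation while favouring that of ATF4, and ATF6 is cut in the Golgi to release a factor that raises chaperone genes. Together they add folding capacity and ER-associated degradation (ERAD), the export of misfolded proteins for destruction, and under lasting stress they raise CHOP (Ddit3). Gene counts do not separate spliced from unspliced Xbp1, nor do they show cleavage of ATF6, phosphorylation or translation, so only transcript abundance is described.

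The libraries held between 29601707 and 43997400 counts, of which the 30 genes took 1.07% to 1.23%, with 171 to 69389 counts for any one of them in any one library. Cfd, the adipsin gene, had 3965, 839 and 1481 counts in AAV-Adipsin and 1, 0, 0 and 0 in AAV-GFP. Beta cell markers made up 16.6% to 20.4% of a library, acinar markers 0.294% to 1.98%, macrophage markers 0.0147% to 0.034% and plasma and B cell markers at most 0.000646%. Acinar and plasma cells are secretory cells with much ER, and since the RNA is that of whole islets, fewer cells of a type and less RNA per cell cannot be told apart. The labels describe 1 library of each group (replicate 1) by its treatment name and the other 5 by a db number. What this difference in description stands for is not given, but both treatments occur in both styles, and these styles are called treatment-named and db-numbered below.

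By level per exon length, expressed as TPM (the usual length-normalised share of a library), the 30 genes spanned more than 2 orders of magnitude, and folding factors led. Pdia3, a disulfide isomerase that works on glycoproteins, averaged 1057 TPM over the 7 libraries (range 876 to 1190.0) and Hspa5, the ER chaperone BiP, 969.7 TPM (862 to 1103), which placed them 45th and 50th of the 16504 genes tested. These ranges overlapped. Hsp90b1, the ER form of HSP90 also called GRP94, followed at 726 TPM (628 to 849). Next came 3 genes whose ranges overlapped almost wholly: Atf4 at 582 TPM (501 to 649.7), the calcium-binding lectin chaperone Calr at 578 (458 to 666) and the ERAD adaptor Herpud1 at 569 (467 to 666). Xbp1 stood at 336 TPM (289 to 381). The sensors were lower, at 146 TPM for Ern1 (97.6 to 167), 65 for Atf6 (48.4 to 76.7) and 51.5 for Eif2ak3 (42.9 to 57.9), and Ern1 did not overlap the other two. Atf3, a stress-induced repressor, was the least abundant of the 30, at 9.51 TPM (6.47 to 13.3).

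**Figure D1:**
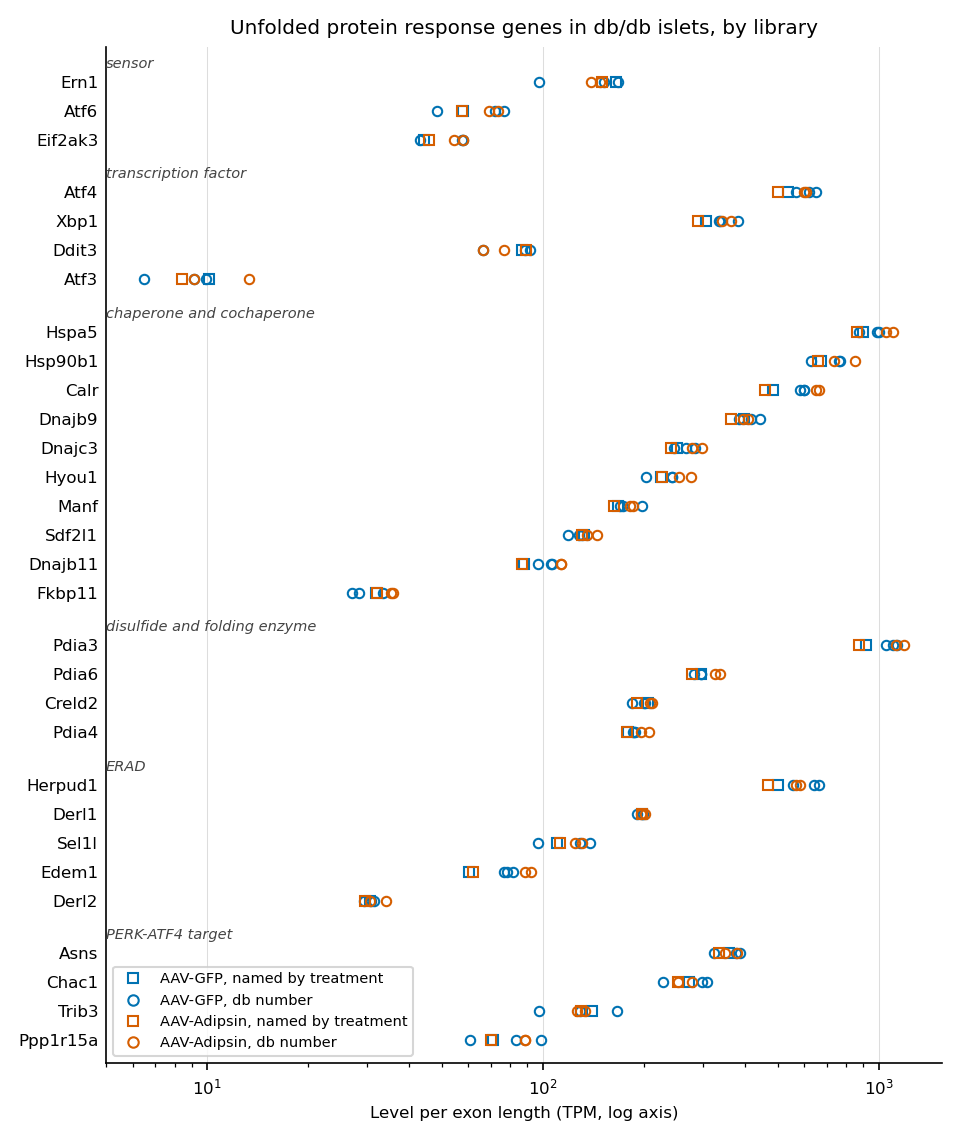
Level of each of the 30 genes in each library, in TPM on a log axis, grouped by role. Blue marks AAV-GFP (4 libraries) and orange AAV-Adipsin (3), squares the treatment-named and circles the db-numbered libraries. Mean levels run from 9.51 TPM for Atf3 to 1057 for Pdia3, and the colours intermix for nearly every gene. For several genes, Calr, Edem1, Pdia3 and Dnajb11 among them, both squares lie to the left of all circles.

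Most of these transcripts varied little between mice. For 25 of the 30 the highest library was under 1.5 times the lowest, in CPM, the count as a share of the scaled library. The coefficient of variation over the 7 libraries had a median of 9.56% for the 30 genes and 13.8% for all genes tested. These sets were not matched for level, and the part of level in this gap was not tested. The count of genes under 1.5 times was not made over all genes. Creld2, an ER disulfide-handling protein, varied least, at 2.05%, and Atf3 most, at 19.9%. The other 4 genes at 1.5 times or more were Ern1, Edem1, Trib3 and Ppp1r15a, at ratios of 1.57, 1.5, 1.62 and 1.55.

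Promoters of several of these genes hold stretches that match elements described for a branch of the response, and 6 stretches are shown to let a reader see those elements beside the values that follow. The RefSeq table of promoters (GRCm38.p6, 250 bases before to 50 after a start) held 26 of the 30 genes. The ER stress response element, ERSE, spelled CCAAT and CCACG with any 9 bases between them, is bound by NF-Y at one end and by ATF6 or XBP1 at the other. Searched on both strands, it occurred for 6 of the 26 genes (Hspa5, Hsp90b1, Calr, Dnajc3, Pdia6 and Creld2) and in 0.119% of all 32851 windows. The related ERSE-II, ATTGG and CCACG with any 1 base between them, occurred for Herpud1 and Dnajb11 and in 0.0365% of windows. The composite site TGATGCAA, bound by ATF4 with a C/EBP partner, occurred for Herpud1, Chac1 and Atf3 and in 0.895% of windows. With any base at the sixth position (TGATGNAA, which includes the former) it was also found for Asns and Trib3 and in 3.97% of windows. A match is a string of letters in this window and does not show that a factor binds. The elements were searched because they are described for this response, so the counts are no test of the set. They count genes, of which 26 had 28 windows, while the shares count windows. The 3 most abundant genes with an ERSE and the 3 genes with TGATGCAA upstream are printed 5′ to 3′ on the strand of the gene, with these elements in capitals, in either orientation.
Hspa5 (chr2:34772000-34772068, plus strand, bases 90 to 22 before the start, 1 ERSE): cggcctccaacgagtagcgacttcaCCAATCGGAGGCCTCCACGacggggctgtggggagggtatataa
Hsp90b1 (chr10:86705508-86705681, minus strand, bases 237 to 64 before the start, 2 ERSE in opposite orientations): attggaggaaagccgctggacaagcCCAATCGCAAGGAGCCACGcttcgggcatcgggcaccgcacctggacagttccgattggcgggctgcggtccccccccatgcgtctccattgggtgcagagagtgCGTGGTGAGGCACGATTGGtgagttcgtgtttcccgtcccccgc
Calr (chr8:84847050-84847118, minus strand, bases 187 to 119 before the start, 1 ERSE in reverse): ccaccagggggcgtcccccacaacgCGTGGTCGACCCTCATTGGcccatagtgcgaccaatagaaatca
Herpud1 (chr8:94386292-94386412, plus strand, bases 137 to 17 before the start, the ATF4 composite in reverse and then the ERSE-II): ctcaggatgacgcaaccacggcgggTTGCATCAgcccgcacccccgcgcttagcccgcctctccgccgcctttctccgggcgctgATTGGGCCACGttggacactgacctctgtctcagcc
Chac1 (chr2:119351024-119351081, plus strand, bases 218 to 161 before the start, the ATF4 composite in reverse): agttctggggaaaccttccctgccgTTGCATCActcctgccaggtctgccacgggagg
Atf3 (chr1:191183411-191183468, minus strand, bases 135 to 78 before the start, the ATF4 composite in reverse): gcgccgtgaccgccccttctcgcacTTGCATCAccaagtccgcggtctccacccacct

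Between AAV-Adipsin and AAV-GFP none of the 30 genes passed the test. In edgeR's quasi-likelihood fit across all 16504 genes, 0 of 30 had an adjusted p under 0.05, where 0.00606% of all genes did (1 gene, Cfd), and 0 of 30 had an unadjusted p under 0.05, where 1.16% of all genes did. DESeq2 and limma-voom called 0 of 30 as well. The median log2 fold change of AAV-Adipsin over AAV-GFP was -0.0051 for the 30 genes, 14 above 0 and 16 below, and -0.011 for all genes tested. Values ran from -0.19 for Herpud1 to 0.15 for Atf3. A p that misses the threshold does not show equal levels, and the 95% intervals give the sizes these data leave possible. Over the 30 genes they reached from a fold of 0.724 to one of 1.52, and for 29 of the 30, all but Atf3, they lay within 1.5-fold either way.

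**Figure D2:**
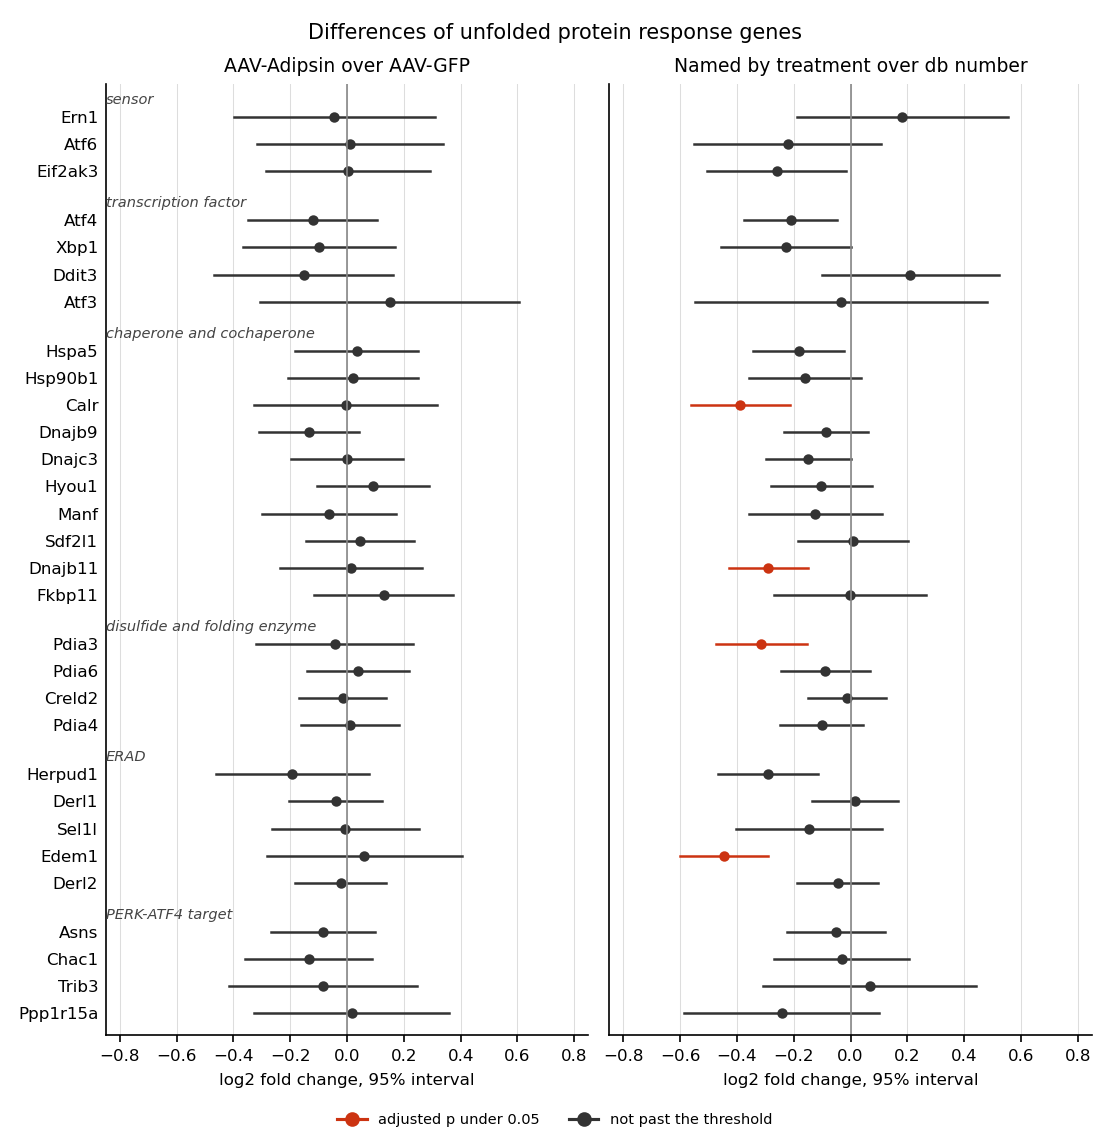
Log2 fold change (point) with its 95% interval (line) for each of the 30 genes from edgeR, for AAV-Adipsin over AAV-GFP (left) and for treatment-named over db-numbered libraries with treatment in the model (right). Red marks an adjusted p under 0.05 over all genes tested: none on the left, where every interval crosses 0, and Calr, Dnajb11, Pdia3 and Edem1 on the right, all below 0.

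The sensor transcripts gave nearly the same means in the groups. Ern1 stood at 527, 529, 501 and 338 CPM in AAV-GFP replicates 1 to 4 and at 493, 437 and 449 CPM in AAV-Adipsin replicates 1 to 3. All AAV-Adipsin values lay inside the AAV-GFP range, in which replicate 4 was far below the other 3. They were also all below AAV-GFP replicates 1 to 3. The log2 fold change was -0.044 (SE 0.16), and it ran from -0.18 to 0.023 over the fits without a single library. Eif2ak3, the PERK gene, had 104, 135, 140.3 and 109 CPM in AAV-GFP and 111, 134 and 122 in AAV-Adipsin, with a log2 fold change of 0.0034 (SE 0.13). For Atf6 the values were 209, 275, 267 and 189 CPM and 213, 245 and 252 CPM, with 0.01 (SE 0.14). In both genes the AAV-Adipsin libraries fell within the range of the controls.

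Among the transcription factors, Xbp1, the target of IRE1, stood at 388, 423, 442 and 523 CPM in AAV-GFP and 378, 453 and 412 in AAV-Adipsin, a log2 fold change of -0.10 (SE 0.12). Its highest value was in AAV-GFP replicate 4, the library with the least Ern1. Atf4, which PERK signalling raises mainly through translation, had 494, 567, 618 and 565 CPM and 474, 542 and 532 CPM (-0.12, SE 0.10), and the groups overlapped. Ddit3, which encodes the pro-apoptotic factor CHOP, had 57.9, 58.6, 63.1 and 48 CPM and 61.2, 50.4 and 42.3 CPM (-0.15, SE 0.14). Its lowest library was AAV-Adipsin replicate 3 and its next lowest AAV-GFP replicate 4, while AAV-Adipsin replicate 1 was among the highest. For Ddit3 the log2 CPM difference came to 0.078 in the treatment-named pair and -0.28 among the db-numbered libraries, and the test of whether treatment acted differently in the styles did not pass (edgeR adjusted p = 1.00). Atf3 rested on 171 to 384 counts per library and had 8.54, 7.66, 8.62 and 5.9 CPM and 7.31, 11 and 7.3 CPM. AAV-Adipsin replicate 2 was its highest library and AAV-GFP replicate 4 its lowest, with a log2 fold change of 0.15 (SE 0.20) that was -0.068 without AAV-Adipsin replicate 2.

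Chaperones and their helpers did not pass either. Hspa5, which restrains the sensors when few unfolded proteins occupy it, had 1484, 1628, 1715 and 1564 CPM in AAV-GFP and 1466, 1708 and 1735 CPM in AAV-Adipsin, or 1636 ± 148 against 1598 ± 97.8 CPM (SD, n = 3 for AAV-Adipsin and n = 4 for AAV-GFP). Each group held values near both ends of the range, and the log2 fold change was 0.034 (SE 0.10). Of the 10 genes of this role 7 had a fitted value above 0 and 3 below, with a median of 0.018, from -0.13 to 0.13. The BiP cochaperones Dnajb11 and Dnajc3, the nucleotide exchange factor Hyou1, the BiP-associated Sdf2l1 and the secreted stress protein Manf had log2 fold changes between -0.063 (Manf) and 0.09 (Hyou1). Hsp90b1 and Calr, each with an ERSE printed above, were at 0.021 and -0.0049.

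Dnajb9, also called ERdj4 (ENSMUSG00000014905, chr12:44205559-44210326), a BiP cochaperone that brings BiP to IRE1 and misfolded proteins to degradation, was the 1 gene of the 30 whose groups did not overlap, where 2.74% of all genes did not and 1.58% lay lower in AAV-Adipsin without overlap, as it did. It had 394, 438, 429.8 and 416 CPM in AAV-GFP and 373, 387 and 386 in AAV-Adipsin. The log2 fold change was -0.13 (SE 0.077, edgeR adjusted p = 1.00), with -0.078 in the treatment-named pair and -0.14 among the db-numbered libraries. Its lowest AAV-GFP library, replicate 1, and the highest AAV-Adipsin library, replicate 2, were less than 10 CPM apart. Fkbp11, a peptidyl-prolyl isomerase of secretory cells, had 33.7, 28.4, 30.9 and 38.2 CPM and 34.8, 37.3 and 35.5 CPM (0.13, SE 0.11). It was lowest in AAV-GFP replicates 2 and 3, and AAV-GFP replicate 4 was above all others.

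The disulfide and folding enzymes had log2 fold changes between -0.044 and 0.039. Pdia3 had 1121, 1382, 1330.3 and 1467 CPM in AAV-GFP and 1105, 1362 and 1389 CPM in AAV-Adipsin, and its lowest library in each group was replicate 1. Pdia6, which also tunes IRE1 signalling, had 433, 429, 448 and 446 CPM and 418, 467 and 468 CPM, with the highest and the lowest library both in AAV-Adipsin. Pdia4, another isomerase, had 168, 175, 180.4 and 189 CPM and 172, 181 and 185 CPM (0.011, SE 0.076), and the AAV-Adipsin values lay within the AAV-GFP range. Creld2 was the steadiest of the 30, at 107 ± 2.3 against 108 ± 2.35 CPM (SD, n = 3 and n = 4) for AAV-Adipsin and AAV-GFP.

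In the ERAD group Herpud1 (ENSMUSG00000031770, chr8:94386438-94395377), which helps assemble the ubiquitin ligase complex in the ER membrane, gave the value farthest from 0 of the 30 genes, -0.19 (SE 0.12, edgeR adjusted p = 1.00). It had 456, 603, 605 and 549 CPM in AAV-GFP and 438, 507 and 507 CPM in AAV-Adipsin. Replicate 1 was lowest in each group, and the other 2 AAV-Adipsin libraries lay between AAV-GFP replicates 1 and 4. The mannose-trimming factor Edem1 had 152, 204, 199.8 and 214 CPM and 161, 228 and 213 CPM (0.062, SE 0.15), again lowest in replicate 1 of each group. Derl1, a channel component, had 257, 255, 267 and 268 CPM and 263, 251 and 249 CPM (-0.04, SE 0.072), with the 2 lowest libraries in AAV-Adipsin. Its relative Derl2 and the ligase scaffold Sel1l were at -0.023 and -0.0053.

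Targets of the PERK-ATF4 branch gave log2 fold changes from -0.13 to 0.016, with 3 of 4 below 0. Chac1, which degrades glutathione, had 174, 189, 204 and 158 CPM in AAV-GFP and 167, 159.5 and 169.5 CPM in AAV-Adipsin (-0.13, SE 0.10). The 3 AAV-Adipsin values lay between those of AAV-GFP replicates 4 and 1. Asns, asparagine synthetase, had 383, 400.1, 426 and 375 CPM and 367, 368 and 386 CPM (-0.085, SE 0.081), with some overlap at AAV-GFP replicates 1 and 4. Trib3, a pseudokinase that feeds back on ATF4 and CHOP, had 116, 107, 142 and 87.7 CPM and 111, 103 and 106 CPM (-0.086, SE 0.15). AAV-GFP spanned far more than AAV-Adipsin, with replicate 3 highest and replicate 4 lowest of all 7. Ppp1r15a, the GADD34 gene that restores translation, showed the same 2 extremes, at 81.4, 94.5, 117 and 75.5 CPM against 82.6, 100 and 96.9 CPM (0.016, SE 0.15).

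A second comparison set the treatment-named against the db-numbered libraries, which differed in many genes besides these. With treatment in the model, 4 of the 30 genes were lower in the treatment-named libraries and 0 higher (edgeR adjusted p under 0.05), where 9.79% of all genes tested were called, 5.57% lower and 4.22% higher. Edem1 (ENSMUSG00000030104, chr6:108828641-108859356) had a log2 value of -0.45 (SE 0.066, edgeR adjusted p = 0.0109), at 152 and 161 CPM in the treatment-named libraries of AAV-GFP and AAV-Adipsin and between 199.8 and 228 CPM in the other 5. Calr (ENSMUSG00000003814, chr8:84841850-84846934) was at -0.39 (SE 0.075, edgeR adjusted p = 0.0235), with 546, 654, 699 and 731 CPM in AAV-GFP replicates 1 to 4 and 530.4, 738 and 697 CPM in AAV-Adipsin replicates 1 to 3. Pdia3 (ENSMUSG00000027248, chr2:121413775-121438687) was at -0.31 (SE 0.069, edgeR adjusted p = 0.0325), with 1121 and 1105 CPM against 1330.3 to 1467. Dnajb11 (ENSMUSG00000004460, chr16:22857845-22879634) was at -0.29 (SE 0.06, edgeR adjusted p = 0.0279), with 111, 134, 138 and 132 CPM and 113, 141 and 136 CPM in the same order. In each of these 4 both treatment-named libraries lay below all 5 others. The 4 were picked by this same comparison, so that order adds no separate evidence. Herpud1, Atf4 and Hspa5, which were not called, showed it too, and its share over all genes was not counted.

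The fitted values of 25 of the 30 genes were below 0 in this comparison, where 50.8% of all genes tested were. The median log2 value of the 30 genes was -0.11, while the median over all genes was -0.0055. For 14 of the 30 the treatment-named library was the lowest of its group in both treatments, where 22.2% of all genes met that description. For 0 of the 30 it was the highest in both, where 22.7% did. AAV-Adipsin replicate 1 was the lowest of all 7 libraries for 12 of the 30 genes, the db-numbered AAV-GFP replicate 4 for 8 and AAV-GFP replicate 1 for 5. Neither treatment-named library was the highest for any, while AAV-GFP replicate 4 was for 6. These counts of extremes were not made over all genes, so they do not set the 30 genes apart. Herpud1 (-0.29, SE 0.076, edgeR adjusted p = 0.0531) and Atf4 (-0.21, SE 0.07, edgeR adjusted p = 0.0987) did not pass. Hspa5 was at -0.18 (SE 0.069, edgeR adjusted p = 0.135), Eif2ak3 at -0.26 (SE 0.11, edgeR adjusted p = 0.157) and Xbp1 at -0.23 (SE 0.10, edgeR adjusted p = 0.183). The 5 genes with values above 0 were Ddit3 at 0.21, Ern1 at 0.18, Trib3 at 0.068, Derl1 at 0.017 and Sdf2l1 at 0.0089, none past the threshold. Role by role, the 3 sensors had a median of -0.22, with Ern1 above 0 and none called. Medians were -0.15 for 5 ERAD genes, -0.14 for 10 chaperones and -0.12 for 4 transcription factors. For 4 folding enzymes the median was -0.095 and for 4 PERK-ATF4 targets -0.041.

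Of the genes with an ERSE, 1 of 6 was called lower (Calr), where 5.57% of all genes were, and Hspa5, Hsp90b1, Dnajc3, Pdia6 and Creld2 stood at -0.18, -0.16, -0.15, -0.089 and -0.012. The 3 genes with TGATGCAA, Herpud1, Chac1 and Atf3, stood at -0.29, -0.03 and -0.034. The test of an interaction between treatment and style was passed by 0 of the 30 genes in edgeR, DESeq2 or limma-voom, and in edgeR 0 had an unadjusted p under 0.05, where 0% and 0.818% of all genes did.

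The style comparison sets 2 libraries against 5, and its calls depended on single libraries. Leaving out replicate 1 of either group, which leaves a style with 1 library that is assumed to vary like the others, 0 of 30 genes were called, where 0.242% (AAV-GFP) and 0.282% (AAV-Adipsin) of all genes were called lower. Edem1 alone was called without AAV-GFP replicate 3, AAV-Adipsin replicate 2 or AAV-Adipsin replicate 3, where 2.55%, 1.44% and 1.84% of all genes were called lower. Without AAV-GFP replicate 2 there were 3 calls, where 4.05% of all genes were called lower, and without AAV-GFP replicate 4 there were 11, where 14.6% were, and all of these calls were lower. The acinar share was 0.59% and 0.432% in the treatment-named libraries and 0.294% to 1.98% in the others, the beta cell share 19.6% and 20.4% against 16.6% to 19.8%, and the share of mitochondrially encoded transcripts 1.23% and 1.13% against 1.45% to 2.68%. Immediate early genes, which respond quickly to handling and stimulation, took 0.0244% and 0.0221% of the treatment-named libraries and 0.0271% to 0.0375% of the others, without overlap. Gene by gene in CPM, Jun, Junb and Ier3 were apart in the same way, while Fos, Fosb, Egr1, Ier2 and Dusp1 overlapped. With the acinar level as a covariate the same 4 genes were called. The part of the beta cell, mitochondrial and immediate early shares in the result was not tested.

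**Figure D3:**
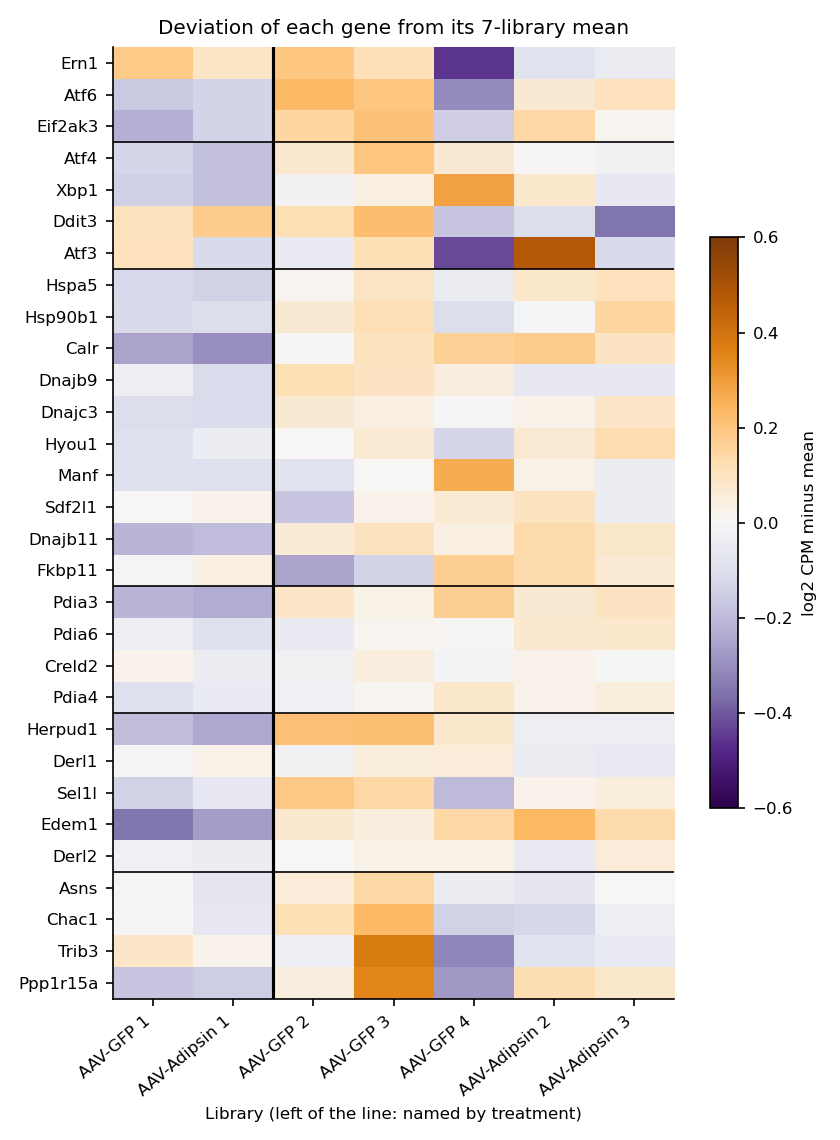
Log2 CPM of each of the 30 genes in each library minus the mean of that gene over the 7 libraries (purple lower, orange higher), with rows grouped by role and the treatment-named libraries left of the vertical line. Mean deviations over the 30 genes were -0.081 and -0.093 in the treatment-named libraries. AAV-GFP replicate 4 has low Ern1, Atf6, Atf3, Trib3 and Ppp1r15a beside high Xbp1 and Manf.

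Single libraries also differed within the styles. In AAV-GFP replicate 4 the 3 sensors had a mean log2 deviation of -0.30 and the PERK-ATF4 targets of -0.19, while chaperones stood at 0.047 and folding enzymes at 0.061. AAV-GFP replicate 3 was above 0 in each role, with the PERK-ATF4 targets at 0.28, the sensors at 0.17, the transcription factors at 0.15, ERAD at 0.097, chaperones at 0.048 and folding enzymes at 0.026. Replicate 4 had the lowest acinar share (0.294%) and the highest share of mitochondrially encoded transcripts (2.68%) of the 7 libraries, and replicate 3 the highest acinar share (1.98%). Replicate 4 also had the highest marker shares of delta cells (0.0875%), PP cells (0.184%), endothelial cells (0.0473%) and stellate cells (0.026%). Whether these shares bear on the deviations was not tested.

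Other genes of ER folding, disposal, protein entry and the integrated stress response were taken from 5 lists, with 130 of 131 genes tested. Between AAV-Adipsin and AAV-GFP 0 of the 130 passed in edgeR, and 0 had an unadjusted p under 0.05, where 1.16% of all genes tested did. Their median log2 fold changes were -0.00017 for 27 ER folding genes, -0.047 for 26 ERAD genes, -0.047 for 24 genes of translocation and glycosylation, -0.039 for 36 genes of the integrated stress response and 0.0049 for 17 regulators. Below 0 lay 14 of 27 folding, 21 of 26 ERAD, 20 of 24 translocation and 25 of 36 stress response genes and 7 of 17 regulators, where 53.8% of all genes did. The 2 smallest p values of each list belonged to Rcn2 at -0.11 and Prdx4 at -0.11 among folding genes, Derl3 at -0.23 and Aup1 at -0.13 in ERAD, and Spcs2 at -0.11 and Ssr4 at -0.13 in translocation. In the stress response they were Eif4ebp1 at -0.16 and Atf5 at -0.22, and among regulators Creb3l3 at -0.75 and Creb3l1 at -0.17. Creb3l3 stood near 1 CPM. Each of these had an edgeR adjusted p of 1.00.

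Between the description styles 16 of the 130 passed, where 9.79% of all genes tested did. Of the 16, 15 were lower in the treatment-named libraries, where 5.57% of all genes tested were called lower. Calls in this comparison depended on single libraries, as described above. In translocation 5 of 24 were lower: Rpn1, a subunit of the oligosaccharyltransferase (-0.41), the translocon-associated Ssr1 (-0.38), Ssr2 (-0.48) and Ssr3 (-0.34), and the signal peptidase subunit Spcs1 (-0.35). Of the ERAD genes 6 of 26 were lower: the extraction ATPase Vcp (-0.34), its partner Ufd1 (-0.31), the lectin Erlec1 (-0.35), Fam8a1 (-0.28), the signal peptide peptidase Hm13 (-0.38) and Edem2 (-0.29). The thiol retention factor Erp44 was lower (-0.47) and Sdf2 higher (0.39) among folding genes. The cystine transporter Slc7a11 (-0.71) and the stress hormone Gdf15 (-0.64) were lower in the stress response list, as was Creb3 (-0.26) among regulators. Edem2 and Creb3 passed narrowly (edgeR adjusted p = 0.0499 and 0.0494). Erp44 showed the size of these differences, at 137, 174, 183 and 202 CPM in AAV-GFP replicates 1 to 4 and 133, 187 and 187 CPM in AAV-Adipsin replicates 1 to 3, with replicate 1 lowest in each group. The list medians were -0.031 for folding, -0.16 for ERAD, -0.11 for translocation, -0.022 for the stress response and -0.15 for regulators.

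**Figure D4:**
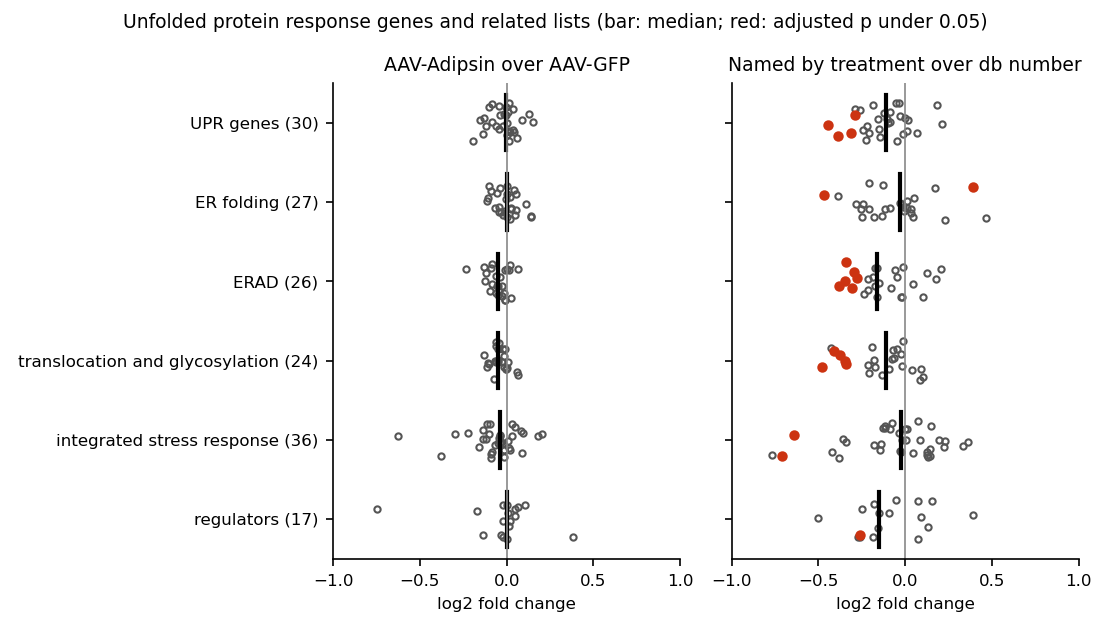
Log2 fold change of each gene in the 30-gene set and in the 5 related lists, for AAV-Adipsin over AAV-GFP (left) and treatment-named over db-numbered libraries (right). Points are genes, bars list medians, and red points have an edgeR adjusted p under 0.05: none on the left, and on the right 4 of the 30 genes and 16 of the 130 others, all but Sdf2 below 0.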

How the data were processed

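Per the labels' protocols, RNA of cultured islets was made into libraries with a stranded mRNA kit. The deposited values are read counts per Ensembl gene, whole numbers that were not normalised, per the file headers and values. The submitters' processing notes name the aligner STAR and the builds mm10 and GRCm38. The sources used here do not give the counting program or its strand setting. Symbols, positions and exon lengths came from GENCODE M21 (release 21, GRCm38), which matched 51719 of 51912 rows, and TPM was computed from counts and exon length. Exons of 10 of the 30 genes overlap those of another gene (among them Ddit3, Manf and Derl2), so that some of their reads could belong to it.

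Tests ran in R 4.3.3 with edgeR 4.0.16: filterByExpr by group, scaling by the trimmed mean of M values, robust quasi-likelihood F tests (two-sided) and Benjamini-Hochberg adjustment over all 16504 genes tested, threshold 0.05. Standard errors (SE) came from the F statistic and 95% intervals from it and its degrees of freedom. DESeq2 1.42.0 and limma 3.58.1 (voom) were alternatives, as were other scalings and filters, covariates, blocks and leaving out libraries. Log2 CPM used a prior count of 2. The tests were checked on simulated counts. All 7 libraries have between 29601707 and 43997400 counts; 3 counts correspond to 0.0682 to 0.101 CPM. The series' design text calls each mouse a separate biological replicate.

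The genes and lists were chosen with earlier results of these data known. All 30 genes are named. Values in every library are given for the sensors, transcription factors and Hspa5, and for the 2 genes of each role with the smallest p in each comparison. Trib3 is given in every library as well, outside this rule. Of the lists, genes past the threshold and the 2 with the smallest p for treatment are named; Erp44 was chosen as the example after its values were seen. Promoters shown are those of the 3 most expressed genes with each element upstream. The ERSE-II and TGATGNAA searches, and the alternatives for the interaction, were added after the data were seen.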

Additional observations from a re-analysis of the deposited data

Results flagged for a closer look

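Among the 30 genes, 1 had an AAV-GFP library set apart from the other 3 by a gap that took most of the range of the group. Ern1 stood at 338 CPM in AAV-GFP replicate 4, against 501 to 529 CPM in AAV-GFP replicates 1 to 3, and the gap was 0.854 of the range. Chance gives such a gap in about 1 of 20 groups. The 30 examined are genes measured in the same libraries and are not independent, so that rate gives no expected number here. The 3 AAV-Adipsin libraries, too few for the same check, had 493, 437 and 449 CPM for Ern1.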

How the results depend on the processing

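No alternative called any of the 30 genes for treatment. Their median log2 fold change stayed within the spread between libraries in every alternative run, from -0.034 without AAV-GFP replicate 1 to 0.043 without AAV-Adipsin replicate 1. For 17 of the 30 genes the fitted sign turned in at least 1 alternative, and for 13 in none; only Atf3 moved by more than its standard error when it turned, with values from -0.068 to 0.27 over the fits without a single library. Over all genes the treatment count of 1 was 4 with DESeq2 and 0 with limma-voom, without a filter on low counts or without both treatment-named libraries, and 0 to 1 without single libraries. With the replicate number as a replicate block 0 of the 30 genes and 1 gene in all were called, and 5 of the 30 had an unadjusted p under 0.05, as did 1109 of all 16504 genes (191 without the block). Whether the numbers pair the mice was not settled. Deviations of same-numbered libraries from their group means correlated across genes at 0.66 for replicates 1, -0.011 for 2 and 0.0071 for 3. Replicates 1 also share the description style, so that the 0.66 cannot be assigned to either. Not every library correlated best with its own number.

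For description style, the count of 4 among the 30 genes was 2 without a filter on low counts (Calr and Edem1), where more genes are tested, 5 with a stricter filter or limma-voom, 6 with DESeq2 or a threshold of 0.10, and 0 to 11 without single libraries. The median of the 30 genes stayed between -0.15 and -0.086. Over all genes the count of 1616 was 2533 with DESeq2, 2975 at a threshold of 0.10 and 39 to 4348 without single libraries. Among the 30 genes the fitted sign turned for 7 in at least 1 alternative, beyond its standard error only for Atf3, which ran from -0.33 to 0.21 without single libraries. The interaction of treatment and style gave 0 genes in edgeR, with 135 at an unadjusted p under 0.05, and 0 in DESeq2 and limma-voom. The cause of these shifts was not tested. At these depths each of the 30 genes had at least 171 counts in every library.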
